A study of Mus musculus with 63 samples.

Results

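Chloride channels and chloride cotransporters were described here as 8 genes chosen by symbol, of 20183 genes in the table. They comprise 6 members of the CLC family (Clcn2, Clcn3, Clcn4-2, Clcn5, Clcn6 and Clcn7, where Clcn4-2 is the name the table gives to Clcn4) and 2 cation-chloride cotransporters (Slc12a2 and Slc12a5). Their levels came from single-cell RNA-seq of somata that were drawn into a pipette from layer 2/3 of mouse V1, the primary visual area of cortex. The mice were wild type C57BL/6 animals, male according to the methods of the study and 70 days old according to the labels. A calcium dye had shown whether each neuron responded to light gratings under light anaesthesia, and 46 cells were labelled light sensitive (LS) and 17 non-light sensitive (NS). The filters that the study describes, applied here to the deposited values, left 35 LS and 12 NS cells, and values are for these 47 cells unless stated otherwise. They removed more LS cells than the study itself did, so this set is not the one the study used. The labels do not tie cells to mice. Each group was therefore taken as 1 sample, no test between groups was made, every SD is the spread between cells, and no difference can be set against a spread between animals.

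The gradient of chloride across the membrane decides what GABA does to a neuron. Slc12a2 (NKCC1) brings chloride into the cell together with sodium and potassium, whereas Slc12a5 (KCC2), which is largely restricted to neurons, carries chloride out with potassium and keeps its level low in mature neurons, so that opening GABA receptors inhibits the cell. Of the CLC proteins, Clcn2 is a chloride channel of the plasma membrane that opens on hyperpolarisation, and Clcn3 to Clcn7 exchange chloride for protons on the membranes of endosomes and lysosomes.

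Neuronal markers were far lower in NS than in LS cells. The summed FPKM (fragments per kilobase of gene and 1000000 reads) of Snap25, Syt1, Rbfox3, Map2 and Tubb3 had a median of 690 in LS cells, with a read in 34 of 35 cells, and of 10.7 in NS cells, with a read in 10 of 12. Reads of astrocyte markers occurred in 33 of 35 LS cells and 10 of 12 NS cells, at median sums of 65.0 and 50.9 FPKM. Depth was 366555 to 2509553 reads in LS cells and 148862 to 882011 in NS cells. Olfactory, vomeronasal and taste receptor genes, which cortical neurons do not use, had a mean of 0.489 FPKM over LS cells against 6.53 FPKM over NS cells, where reads spread evenly over all exons would give 12 FPKM. This receptor level reached 10% of even spread in 9 of 12 NS and 4 of 35 LS cells. Differences between the groups therefore came with differences in depth, in neuronal markers and in this background, and their part in the results was not tested.

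The 3 genes that were higher in LS cells by the fold rule used below were Clcn4-2, Clcn3 and Slc12a5, and the bases before a start of each are shown so that the genes can be placed. Sequences are from RefSeq (GRCm38.p6), written 5′ to 3′ on the strand of the gene, and are 150 bases that lie before an annotated start and outside the exons of the gene in GENCODE M21. Of the 8 genes 7 had an entry, that of Clcn4-2 under Clcn4. Capitals mark the cyclic AMP response element TGACGTCA, which was met in Clcn4-2 alone among these 3. The GC box GGGCGG and the TATA box TATAAA, searched on both strands, did not occur in the bases shown. The full windows of 250 bases at the starts shown for Clcn4-2 and Clcn3 held 1 GC box each, farther from the start.
Clcn4-2, chr7:7299558-7299707, minus strand: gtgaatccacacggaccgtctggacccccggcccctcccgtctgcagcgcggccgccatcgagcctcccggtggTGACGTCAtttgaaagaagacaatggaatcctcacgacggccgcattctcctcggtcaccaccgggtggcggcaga
Clcn3, chr8:60983312-60983461, minus strand: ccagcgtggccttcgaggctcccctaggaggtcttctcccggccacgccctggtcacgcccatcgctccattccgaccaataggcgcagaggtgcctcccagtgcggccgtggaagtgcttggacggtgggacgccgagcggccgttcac
Slc12a5, chr2:164960652-164960801, plus strand: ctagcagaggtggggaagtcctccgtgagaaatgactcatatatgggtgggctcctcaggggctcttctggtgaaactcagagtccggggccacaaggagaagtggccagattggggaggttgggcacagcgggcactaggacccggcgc
Of 32851 mouse promoter windows of 250 bases, 1.55% held TGACGTCA, 32.7% the GC box and 12.4% the TATA box. At the starts shown, the windows of Clcn4-2 and Clcn3 had 22 and 27 CpG pairs against a median of 6 over all windows, and that of Slc12a5 had 13. Each of these genes had another window at a different start. Those of Clcn4-2 and Clcn3 held 8 and 7 CpG pairs, with neither TGACGTCA nor a GC box. That of Slc12a5 held 16 CpG pairs and 1 GC box, so these traits depend on the start chosen. A match is a description of these letters and says nothing of which factor acts there.

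The 8 genes differed widely in level. Levels of different genes rest on the length behind each FPKM, which for Clcn4-2 was 4578 bases against 8575 in GENCODE M21. Clcn4-2 had the highest mean in LS cells, followed by Slc12a5 and Clcn7, and Clcn5 the lowest. Differences between neighbours in this order were smaller than their SD over cells in all 7 pairs: Clcn4-2 exceeded Slc12a5 in 21 of 35 LS cells, and Slc12a5 exceeded Clcn7 in 17. An LS cell held reads of 5.40 ± 1.75 of the 8 genes (SD, 35 cells), and an NS cell of 2.83 ± 2.29 (SD, 12 cells). Thinning every cell to 200000 reads, with 4 NS cells too shallow to enter, gave means of 4.91 and 3 genes. All 8 genes were found in 2 LS cells and in no NS cell, while 1 LS and 2 NS cells had no read of any.

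**Figure D1:**
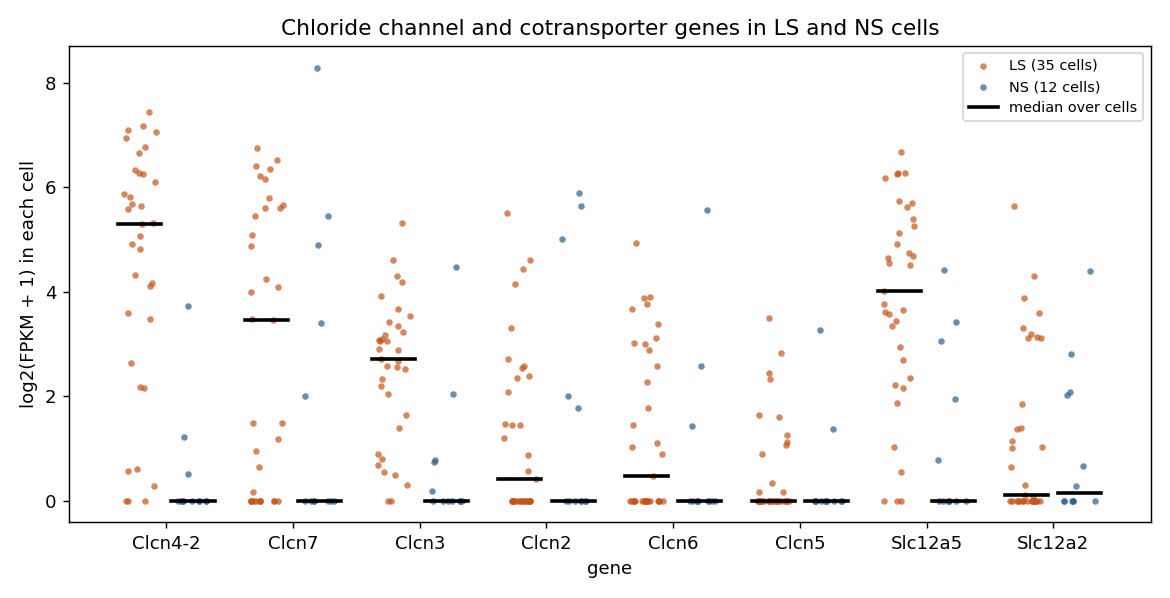
Level of each gene in each of the 35 LS (orange) and 12 NS (blue) cells, as log2(FPKM + 1), with black bars at the median over cells. Most LS cells lie well above 0 for Clcn4-2, Clcn3 and Slc12a5, where the NS medians are 0, while single NS cells reach the top of the range for Clcn7 and Clcn2.

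A gene was called higher in a group when its mean FPKM was at least 2-fold that of the other. By this rule 3 of the 8 genes were higher in LS (Clcn3, Clcn4-2 and Slc12a5), 1 was higher in NS (Clcn2) and 4 were not called. Of the 16760 genes whose mean reached 1 FPKM in a group, 33.8% were higher in LS, 38.9% higher in NS and 27.3% not called. The count towards LS was near its background, and that towards NS was below it. Clcn5 reached 1 FPKM in neither group and is therefore not among the 16760. The median log2 ratio of LS over NS was 0.38 for the 8 genes and −0.36 over all genes with reads in both groups.

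Clcn4-2 (ENSMUSG00000000605, chromosome 7, 7282309 to 7300851, minus strand, GRCm38), an endosomal exchanger that pairs with other CLC proteins, was the gene with the largest ratio of the 8. In LS cells it ranged from 0 to 173 FPKM with a median of 38.2 and a mean of 49.3 ± 48.7, and 32 of 35 cells had a read. In NS cells it ranged from 0 to 12.2 FPKM with a median of 0 and a mean of 1.16 ± 3.51, and 3 of 12 cells had a read. No NS cell exceeded the LS median, and 24 LS cells exceeded the highest NS cell. The means differed 42.3-fold (log2 ratio 5.40), and 11.3% of all genes had a ratio at least as large. Pooled reads gave a log2 ratio of 4.82 with an exact 95% interval of 4.40 to 5.27, which like every interval here covers counting error only, since reads of amplified cDNA are not independent molecules. NS_16 carried 41 of the 45 NS reads, and without this cell the log2 ratio was 8.28. The ratio was smaller in other sets of cells, at 3.80 with all 63 cells, where NS_17 held 36.05 FPKM, and at 3.49 among the cells with a receptor level under 10%. In the 9 NS cells without a read, 3 reads would have been 0.825 to 3.69 FPKM, below the level of most LS cells. The NS mean was 0.178 of the NS receptor-gene mean, whereas the LS mean was 100.8 times the LS receptor-gene mean. In NS_16 itself, which held 12.2 FPKM of Clcn4-2, the receptor-gene mean was 0.294 FPKM.

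Clcn3 (ENSMUSG00000004319, chromosome 8, 60910389 to 60983300, minus strand), an exchanger of endosomes and synaptic vesicles, had reads in 33 of 35 LS cells, the most of the 8 genes. LS levels ran from 0 to 38.8 FPKM around a median of 5.55, with a mean of 7.30 ± 7.81. NS levels ran from 0 to 21.2 FPKM around a median of 0, with a mean of 2.16 ± 6.07, and 5 of 12 cells had a read. LS cells were thus mostly low but positive, 7 of 12 NS cells were at 0, and 4 of the other 5 held at most 3.13 FPKM. NS_14 held 21.2 FPKM, 82.0% of the NS sum, and the log2 ratio of 1.76, which 26% of all genes reached, became 4.11 without it. In the 3 NS and 31 LS cells with a receptor level under 10%, of which NS_14 is one, the direction turned, with a log2 ratio of −0.16.

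Clcn7 (ENSMUSG00000036636, chromosome 17, 25133391 to 25162104, plus strand), the exchanger of lysosomes, was the second CLC gene of LS cells by level. It ranged from 0 to 106 FPKM in LS cells, with a median of 9.99, a mean of 25.3 ± 32.5 and a read in 24 of 35 cells. In NS cells it ranged from 0 to 313 FPKM, with a median of 0, a mean of 33.1 ± 89.2 and a read in 5 of 12 cells. LS cells spread widely, with 11 of them at 0, and 1 NS cell stood above all others. NS_12 held 1734 of 1881 NS reads, and without it the log2 ratio of −0.39 became 1.72. Among cells with a receptor level under 10% it was 2.83, where the 3 NS cells held 37 reads, all in NS_16.

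Clcn2 (ENSMUSG00000022843, chromosome 16, 20702964 to 20717746, minus strand), the plasma membrane channel, was the only one of the 8 called higher in NS. LS cells ranged from 0 to 44.6 FPKM, with a median of 0.328, a mean of 4.26 ± 9.10 and a read in 18 of 35 cells. NS cells ranged from 0 to 58.3 FPKM, with a median of 0, a mean of 12 ± 21.5 and a read in 5 of 12. The NS mean came from NS_14, NS_9 and NS_12, at 58.3, 49.2 and 31.1 FPKM, and the groups overlapped over nearly their whole range. The log2 ratio was −1.49, a difference towards NS that 33.3% of all genes reached, or −0.87 and no longer 2-fold without NS_14. The NS mean was 1.84 times the NS receptor-gene mean. In NS_14 itself that mean was 0.333 FPKM, and in NS_9 it was 5.16.

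Clcn6 (ENSMUSG00000029016, chromosome 4, 148004259 to 148038821, minus strand), an exchanger of late endosomes found chiefly in neurons, was low in both groups. LS cells ranged from 0 to 29.7 FPKM, with a median of 0.390, a mean of 3.88 ± 6.36 and a read in 18 of 35. NS cells ranged from 0 to 46.5 FPKM, with a median of 0, a mean of 4.43 ± 13.3 and a read in 3 of 12. The 2 means differed by less than the spread of cells (log2 ratio −0.19). NS_6 alone made 87.5% of the NS sum from 49 reads, and without it the log2 ratio was 2.68. The receptor-gene mean of NS_6 was 10.3 FPKM.

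Clcn5 (ENSMUSG00000004317, chromosome X, 7153810 to 7319358, minus strand), an endosomal exchanger best known from the kidney, was the lowest of the 8 in both groups. LS cells ranged from 0 to 10.3 FPKM, with a median of 0, a mean of 0.976 ± 2.18 and a read in 13 of 35. NS cells ranged from 0 to 8.59 FPKM, with a median of 0, a mean of 0.848 ± 2.48 and a read in 2 of 12. The means differed by less than the spread of cells (log2 ratio 0.20). NS_4 carried 41 of the 47 NS reads, and without it the log2 ratio was 2.75.

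**Figure D2:**
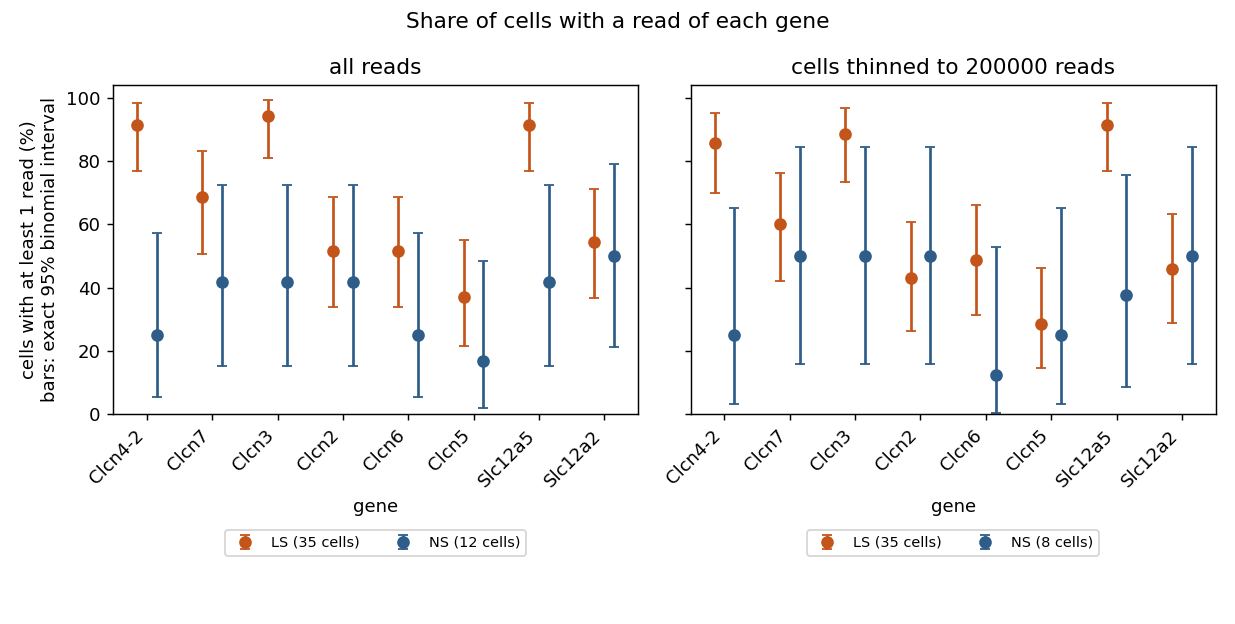
Share of LS and NS cells with at least 1 read of each gene, with exact 95% binomial intervals, from all reads (left) and after thinning to 200000 reads (right, 8 NS cells). The bars cover counting error only and compare no animals. Clcn4-2, Clcn3 and Slc12a5 lie at or above 91.4% in LS cells and at or below 41.7% in NS cells on the left.

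More of the 8 genes differed 2-fold towards LS in detection than in their means. The share of cells with a read was at least 2-fold higher in LS for 5 of the 8 genes, and for 41.6% of all genes, and in NS for none of them and 16.2% of all genes. It was 91.4% (exact 95% interval 76.9 to 98.2) in LS and 25% (5.49 to 57.2) in NS cells for Clcn4-2, and 94.3% (80.8 to 99.3) against 41.7% (15.2 to 72.3) for Clcn3. For Clcn2 and Slc12a2 the shares were close, at 51.4% against 41.7% and 54.3% against 50%. After thinning, Clcn4-2 had reads in 30 of 35 LS and 2 of 8 NS cells, Clcn3 in 31 and 4, and Slc12a5 in 32 and 3, so that the order held at equal depth. Clcn2 and Slc12a2 had reads in 15 and 16 of 35 LS cells and each in 4 of 8 NS cells, which put NS slightly ahead.

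The make-up of CLC expression differed between the groups. Of the summed mean FPKM of the 6 CLC genes, Clcn4-2 made 54.2% in LS cells and Clcn7 27.8%, followed by Clcn3 with 8.02%. In NS cells Clcn7 made 61.7%, Clcn2 22.3% and Clcn4-2 2.17%. These shares, and which gene leads in a cell, depend on the length behind each FPKM, 4578 bases for Clcn4-2 against 8575 in GENCODE M21. Within single cells Clcn4-2 was the highest CLC gene in 23 of the 34 LS cells with a CLC read and Clcn7 in 7, whereas in the 9 such NS cells Clcn2, Clcn6 and Clcn7 led in 2 each and the other 3 genes in 1 each. No single CLC gene led in most NS cells, and the large share of Clcn7 came from NS_12. The mean over the 6 genes was 15.2 ± 11.7 FPKM in LS and 8.95 ± 16.2 in NS cells (log2 ratio 0.76, or 1.75 without NS_12). On pooled reads, the log2 ratio of this family mean was 0.02.

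**Figure D3:**
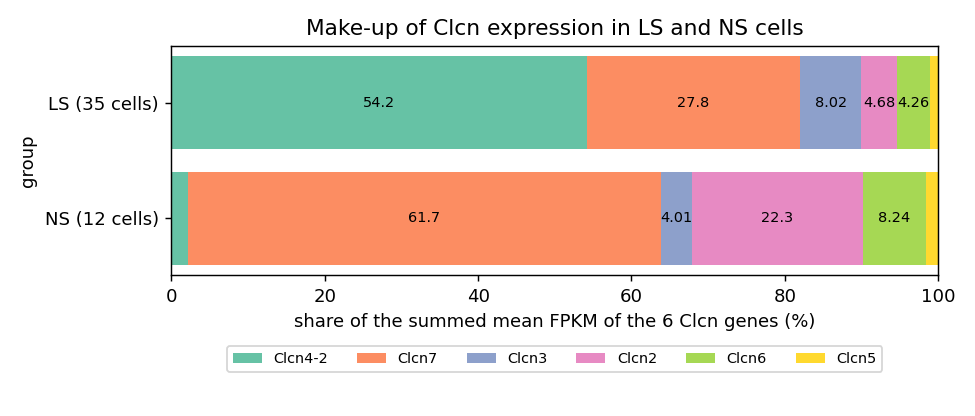
Share of each CLC gene in the summed mean FPKM of the 6 CLC genes, for LS and NS cells. Clcn4-2 makes 54.2% of the LS bar and 2.17% of the NS bar, where Clcn7 makes 61.7%, most of it from 1 cell.

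Slc12a5 (ENSMUSG00000017740, chromosome 2, 164960802 to 164999731, plus strand), the chloride extruder KCC2, ranged from 0 to 102 FPKM in LS cells, with a median of 15.2 and a mean of 26.3 ± 27.2. In NS cells it ranged from 0 to 20.5 FPKM, with a median of 0 and a mean of 3.43 ± 6.30. At least 1 read was seen in 32 of 35 LS cells and in 5 of 12 NS cells, and 17 LS cells lay above the highest NS cell. The means differed 7.67-fold (log2 ratio 2.94), a ratio that 18% of all genes reached, and pooled reads gave 3.01 (exact 95% interval 2.75 to 3.28). Without NS_6, which held 20.5 FPKM from 27 reads, the log2 ratio was 3.81. The NS mean was 0.526 of the NS receptor-gene mean. With all 63 cells the log2 ratio was 0.90, since 3 NS cells that the filters remove, NS_3, NS_10 and NS_17, held 64.9, 85.6 and 27.6 FPKM from 164, 106 and 191 reads. NS_3 and NS_10 were removed for their astrocyte score and NS_17 for joint excitatory and inhibitory markers. A log2 ratio of 0.90 is below the 2-fold rule, so the size of the difference in Slc12a5 and its call both rested on the filter.

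Slc12a2 (ENSMUSG00000024597, chromosome 18, 57878678 to 57946821, plus strand), the chloride importer NKCC1, was low in both groups. LS cells ranged from 0 to 49.0 FPKM, with a median of 0.079, a mean of 4.08 ± 9.11 and a read in 19 of 35. NS cells ranged from 0 to 20.03 FPKM, with a median of 0.105, a mean of 2.76 ± 5.77 and a read in 6 of 12. Most cells of both groups were near 0, and few reached 10 FPKM. The means did not differ 2-fold (log2 ratio 0.56). NS_8 made 60.4% of the NS sum, and without it the log2 ratio was 1.77. The NS mean was 0.423 of the receptor-gene mean, and among cells with a receptor level under 10% the log2 ratio was 3.99. There the 3 NS cells held only 4 reads of Slc12a2.

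**Figure D4:**
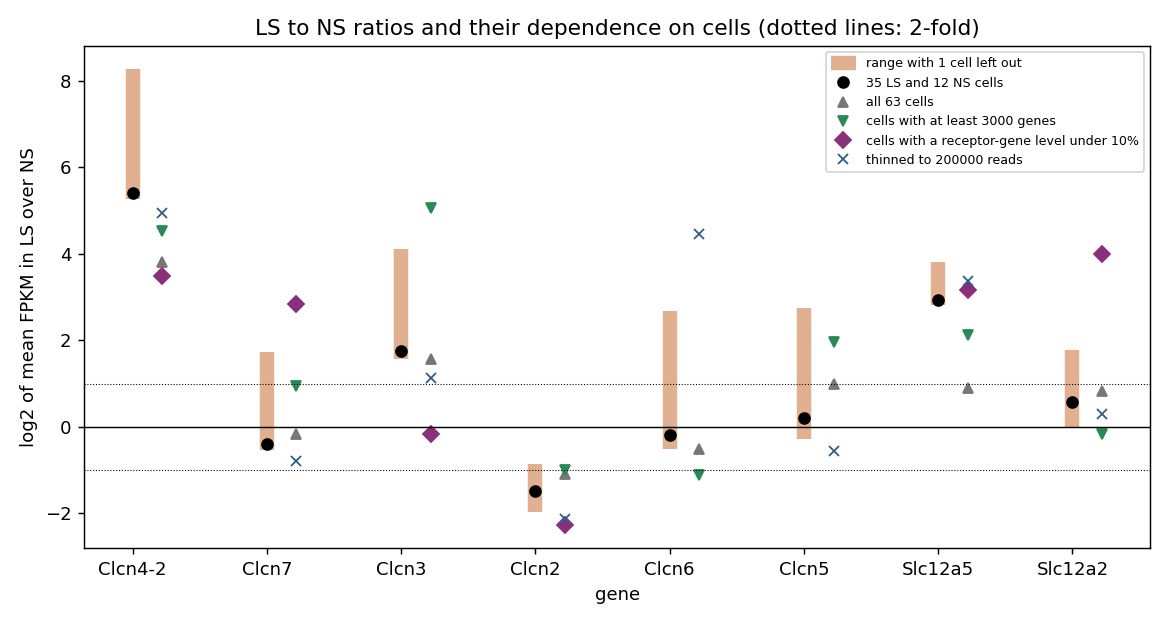
Log2 ratio of mean FPKM in LS over NS for each gene (black), the range when 1 cell is left out (bars) and 4 other choices of cells or depth (symbols). Clcn4-2 and Slc12a5 stay above 0 throughout, from 3.49 to 8.28 and from 0.90 to 3.81 over the settings drawn, while Clcn3, Clcn5, Clcn6, Clcn7 and Slc12a2 cross 0.

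The balance of the cotransporters was set as the ratio of Slc12a5 to Slc12a2, which FPKM allows because it is per length. The length behind the deposited values was 6520 bases for Slc12a2, against 10920 in GENCODE M21, and 7415 against 7447 for Slc12a5. The size of the ratio within a group or cell therefore depends on the lengths used. In LS cells the ratio of means was 6.45 (log2 2.69), and Slc12a5 was the higher of the pair in 27 of 35 cells (77.1%, exact 95% interval 59.9 to 89.6), Slc12a2 in 6, and 2 cells had neither. In NS cells the ratio was 1.24 (log2 0.31), with Slc12a5 higher in 3 of 12 cells (25%, 5.49 to 57.2), Slc12a2 in 4 and neither found in 5. Of the LS cells 14 had reads of Slc12a5 alone, 1 of Slc12a2 alone and 18 of both, and of those 18 Slc12a5 was higher in 13. The log2 ratio within a cell, with 1 FPKM added to both genes, was 2.62 ± 2.66 in LS cells (−3.77 to 6.28) and 0.12 ± 1.33 in NS cells (−2.02 to 3.15). Slc12a5 thus exceeded Slc12a2 in most LS cells, and the NS cells were spread over all 3 outcomes.

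Single cells carried much of the NS value. The difference between the groups in log2 balance was 2.38, and it was 1.33 without NS_8, 3.08 without NS_6 and 2.97 without LS_28. The NS balance itself was 1.37 without NS_8 and −0.39 without NS_6, and the LS balance was 3.28 without LS_28, the cell with the highest Slc12a2. With all 63 cells the NS ratio of means was 6.54, close to the LS ratio of 6.87. Among cells with a receptor level under 10%, 31 LS and 3 NS, the difference turned to −0.84. There, all 53 NS reads of Slc12a5 were in NS_16, and Slc12a2 had 4 NS reads. Slc12a5 was still the higher of the pair in 77.4% of these LS and 33.3% of these NS cells. In GABA-marked cells (more Gad1 and Gad2 than Slc17a7 and Neurod2), 4 LS and 6 NS, the ratio of means was 1.32 in LS and 3.49 in NS. Among cells with at least 3000 genes the difference was 2.30, and among cells with more excitatory than inhibitory markers, of which 2 were NS, it was 4.38. The lower balance of NS cells thus held with any 1 cell left out, and its presence depended on which cells were kept.

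**Figure D5:**
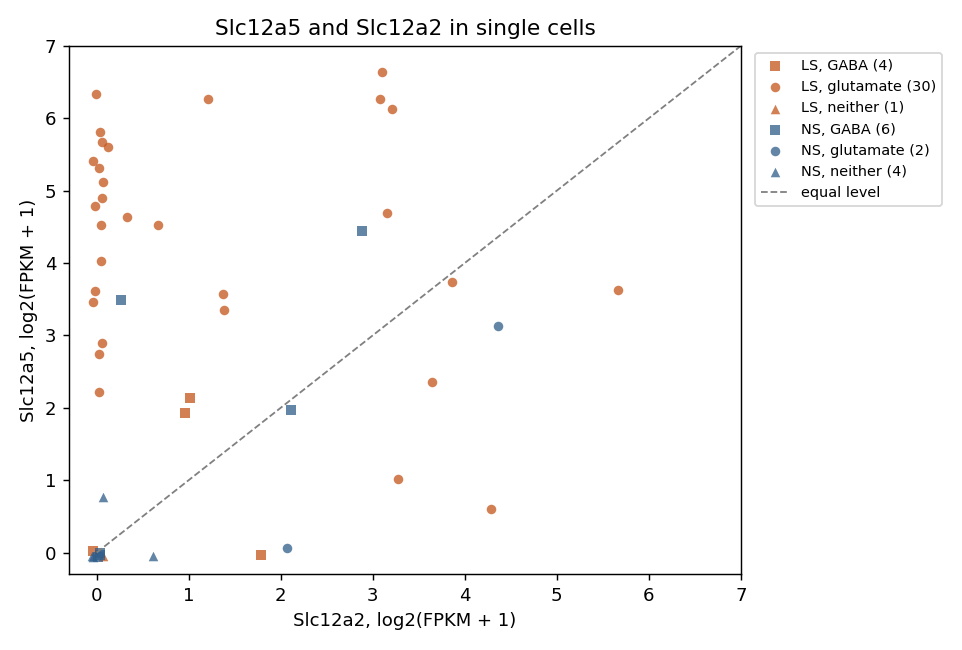
Slc12a5 against Slc12a2 in each cell, as log2(FPKM + 1) with a small random offset so that cells at 0 can be seen. Orange marks LS and blue NS cells, the shape gives the marker class, and the dashed line marks equal levels. Of the 35 LS cells 27 lie above the line, many at 0 on the Slc12a2 axis, and 5 of 12 NS cells lie at the origin.

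The LS group was mostly of 1 marker class. By the sum of Slc17a7 and Neurod2 against that of Gad1 and Gad2, 30 LS cells were glutamate-marked, 4 GABA-marked and 1 neither, and the NS cells split into 2, 6 and 4. Slc12a5 had a read in all 30 glutamate-marked LS cells, with a mean of 30.5 ± 27.2 FPKM, and in 2 of 4 GABA-marked LS cells, with a mean of 1.54 ± 1.81 and a maximum of 3.48. In NS cells it averaged 5.52 ± 8.26 FPKM over the 6 GABA-marked cells and 3.69 FPKM over the 2 glutamate-marked cells, where NS_8 held all reads. Clcn4-2 averaged 54.6 ± 49.7 FPKM in glutamate-marked and 22.1 ± 31.2 in GABA-marked LS cells, and Clcn6 had no read in the 4 GABA-marked LS cells. GABA-marked cells alone gave Clcn4-2 means of 22.1 in LS and 2.11 in NS, and Slc12a5 means of 1.54 and 5.52, so that within this class Clcn4-2 was higher in LS cells and Slc12a5 in NS cells. Glutamate-marked cells gave the opposite direction for Slc12a5, 30.5 against 3.69 FPKM. The 2 glutamate-marked NS cells had a receptor level of 10% or more, as did 3 of the 30 such LS cells. In NS_8, the 7.37 FPKM of Slc12a5 lay below the receptor-gene mean of 11.9 FPKM. Among GABA-marked cells 4 of 6 NS and 1 of 4 LS cells had a receptor level of 10% or more. The part of this background in the class means was not tested. The means of GABA-marked cells rested on single cells. For Clcn4-2 the mean was 6.95 in LS without LS_14 and 0.083 in NS without NS_16. For Slc12a5 the mean was 0.891 in LS without LS_14 and 2.52 in NS without NS_6. With the classes so unevenly split, class and light response cannot be told apart for Slc12a5.

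Across the 35 LS cells the members varied with little relation to each other. Pearson correlations of log2(FPKM + 1) between pairs of members ran from −0.11 to 0.51, the highest being that of Clcn3 with Slc12a5, and Slc12a2 with Slc12a5 was at −0.11. All values of a cell come from the same library, and the number of genes found in a cell correlated with Clcn7 at 0.45 and with Slc12a2 at 0.40. The log2 of the reads of a cell correlated with Clcn7 at 0.21 and with Slc12a2 at −0.25. Of 6121 genes with reads in at least 50% of LS cells, those most like Slc12a5 were the AMPA receptor subunits Gria3 (r = 0.81) and Gria2 (r = 0.80) and then Enc1 (r = 0.77). For Clcn4-2 they were Cntn1 (r = 0.65), Pde1a (0.61) and Pa2g4 (0.60), and for Slc12a2 Tmed5 (0.66), Wdtc1 (0.64) and Ctnnd1 (0.60). These are the highest of 6121 values over 35 cells, so they are large by selection. The 99th percentile was 0.64 for Slc12a5, 0.49 for Clcn4-2 and 0.45 for Slc12a2. The 35 cells mix marker classes, with 30 glutamate-marked.

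Other genes that move or regulate chloride were counted from 5 lists with 39 genes in the table, of which 38 reached 1 FPKM in a group. By the 2-fold rule 7 of the 38 were higher in LS, where 33.8% of all genes were, 17 were higher in NS, where 38.9% of all genes were, and 14 were not called. Their median log2 ratio was −0.64. Of the 39 genes 27 had reads in a larger share of LS than of NS cells, as did 71.3% of all genes. With the highest NS cell of each gene left out, 9 of the 17 calls towards NS were lost. Of the 14 genes not called, 8 then became 2-fold higher in LS. Leaving out that cell can only lower the NS mean, so every change had to be towards LS. The highest LS cell was not left out for this count, and the share of all genes that would change was not computed.

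Among the other cotransporters 5 of 7 were higher in NS and 2 in LS, against 38.9% and 33.8% of all genes. A gene of these 5, not among the 3 that could be named, had 90.3% of its NS sum in NS_7. Without that cell it was 2-fold higher in LS (log2 ratio 2.05). Slc12a4 averaged 3.43 ± 8.37 FPKM in LS and 39.1 ± 106 in NS cells, and 9.05 in NS without NS_15, the cell with the highest receptor level (177%). Slc12a7 averaged 4.28 ± 10.4 and 23.2 ± 50.6 FPKM, and in NS 11.7 without NS_11 and 15.4 without NS_2. Both were thus still 2-fold higher in NS cells with 1 of these cells left out at a time. NS_11 alone made 53.8% of the NS sum of Slc12a7, and leaving out NS_11 and NS_2 together was not tested. Of the kinases that regulate Slc12a2 and Slc12a5, 1 of 5 was higher in LS and 4 were not called, against 33.8% and 27.3% of all genes. Wnk1 was at 13.7 ± 15.2 FPKM in LS and 17.9 ± 45.4 in NS cells, or 5.08 in NS without NS_13, which made it 2-fold higher in LS. Stk39 was at 13.4 ± 22.4 and 13.4 ± 25.4 FPKM, or 7.72 in NS without NS_8. Ostm1, the partner of Clcn7, was at 6.22 ± 10.1 and 9.66 ± 22.8 FPKM, and its only NS reads were in NS_4 and NS_16.

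Of the volume-regulated and calcium-activated anion channels 2 of 13 were higher in LS and 6 in NS. For NS this is near the 38.9% of all genes, and for LS below the 33.8%. Lrrc8b, a subunit of the volume-regulated channel, was at 21.96 ± 26.7 FPKM in LS and 11.1 ± 23.8 in NS cells, or 4.69 in NS without NS_6. Ttyh1 was at 16.2 ± 17.7 and 58.3 ± 146 FPKM, and its NS mean of 16.9 without NS_11, a cell with a receptor level of 92.8%, no longer differed 2-fold from LS. Slc4a10, a sodium-dependent bicarbonate transporter of neurons, was at 39.1 ± 49.6 and 32.97 ± 66.0 FPKM, or 15.9 in NS without NS_13. It had reads in 33 of 35 LS cells and 6 of 12 NS cells. None of its list of 6 was higher in LS and 2 were higher in NS, against 33.8% and 38.9% of all genes.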

How the data were processed

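The authors trimmed reads with AfterQC, aligned them to GRCm38 with STAR 2.5.3a, counted them with featureCounts and deposited FPKM of 20183 genes in 63 cells. 0 of the per-cell columns stayed unused. From the steps of FPKM within a cell, reads were recovered with the exon length of GENCODE M21 (12095 genes) or a length solved from the values (6793 genes), Clcn4-2, Clcn7, Slc12a2 and Slc12a5 among the latter. All low values of the 8 genes were whole within 0.01 reads. A length was accepted only where at least 90% of the low values came out whole, so this is no separate check of the solved lengths. On simulated data with 18888 genes, built with these same lengths, 99.9% of resolved values equalled the simulated reads. Totals are known up to a common factor. The filters as the study describes them, with marker scores as products of the deposited FPKM, removed 16 cells: 2 of low cDNA, 1 with under 1000 genes above 1 FPKM, 10 by astrocyte, 1 by oligodendrocyte and 2 by joint excitatory and inhibitory scores. None of the others exceeded the limit of 25% on mitochondrial reads. The study removed fewer cells by the marker scores and some by the mitochondrial limit, so its set differs. Counting intervals are exact at 95%. The members and gene lists were chosen with earlier results of these data known, and of each list the 3 genes with the highest mean over the filtered cells could be named. Alternatives were other cell sets, medians, log means, pooled reads, thinning (seed 11) and each cell left out in turn. Scripts ran under Python 3.11.15 with scipy 1.17.1, pandas 2.3.3 and numpy 2.4.6.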

Additional observations from a re-analysis of the deposited data

How the results depend on the processing

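With 1 cell left out in turn, the log2 ratio of LS over NS ranged from −1.97 to −0.87 for Clcn2, 1.56 to 4.11 for Clcn3, 5.28 to 8.28 for Clcn4-2, −0.28 to 2.75 for Clcn5, −0.51 to 2.68 for Clcn6, −0.53 to 1.72 for Clcn7, −0.0035 to 1.77 for Slc12a2, 2.81 to 3.81 for Slc12a5 and 0.64 to 1.75 for the CLC family mean. The log2 ratio of Slc12a5 over Slc12a2 ranged from 2.57 to 3.28 in LS and −0.39 to 1.37 in NS cells, and its difference from 1.33 to 3.08. With all 63 cells the Slc12a5 ratio was 0.90 and the NS balance 2.71. In cells with a receptor level under 10% the ratios were −0.16 for Clcn3, 2.83 for Clcn7 and 3.99 for Slc12a2, the NS balance 3.63 and the balance difference −0.84. In cells with at least 3000 genes the ratios were 5.07 for Clcn3 and 1.96 for Clcn5. In cells with more excitatory than inhibitory markers, 2 of them NS, they were 2.42 for Clcn6 and −1.33 for Slc12a2, with an NS balance of −1.65 and Slc12a5 above Slc12a2 in 0% of those NS cells. Means of log2(FPKM + 0.1) gave 3.58 for Clcn3 and 2.41 for the family, medians 2.48 for the family and 7.58 for the LS balance, and thinning 4.46 for Clcn6. The cause was not tested beyond the smaller sets these choices leave. The other 102 values compared across these settings moved by less than the SD over cells or their binomial interval, as did 86 of the shares of cells with a read, while 10 such shares moved further. That SD is wide, and values within it could change sign or lose a 2-fold difference. The balance difference was 0.07 with all 63 cells, and Clcn7 was at 0.93 with at least 3000 genes and −1.27 on pooled reads. The sign held in 9 of 9 such settings for Clcn4-2, Clcn2 and Slc12a5 each. It held in 7 of 8 for Clcn3, 6 of 8 for Clcn5, 3 of 8 for Clcn6, 4 of 9 for Clcn7 and 7 of 10 for Slc12a2.

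No paired analysis was possible because the labels do not tie cells to mice and the numbers of LS and NS cells only name cells. The NS depth limits single levels: 3 reads were up to 3.69 FPKM for Clcn4-2 in NS cells without a read. Medians of NS cells at 0 and settings without NS reads of a gene gave no ratio.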
